A study of Rattus norvegicus with 20 samples.

Results

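Adipoq, Plin1, Plin4, Fabp4, Cidec, Pparg and Lep are 7 genes whose products mark fat cells, and each was taken by its symbol from a gene table of 21926 entries. All 7 were present in the table. Skeletal muscle of Sprague Dawley rats was profiled by stranded poly(A) RNA sequencing with paired ends. The 20 libraries were gastrocnemius after hindlimb ischemia, gastrocnemius after sham treatment, soleus after hindlimb ischemia and soleus after sham treatment, with 5 libraries in each of these 4 groups. The ischemia libraries, titled PAD, came from an occlusion of the iliac and femoral artery by an endovascular catheter. No genetic change was named for any group, and neither the age or sex of the rats nor the time after occlusion was given. The labels did not say which libraries came from 1 rat or from separate rats, so a p-value here measures the spread between libraries, part of which may be technical. The study compared how chronic limb ischemia changed gene profiles in gastrocnemius, a mostly fast muscle, and in soleus, a slow one.

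White fat cells store triglyceride in a single large droplet whose coat proteins control access of lipases, and they secrete hormones such as adiponectin and leptin. In skeletal muscle such cells lie between the fibres and the fascicles, and they can arise from fibro-adipogenic progenitors, which are mesenchymal cells of the muscle interstitium. Not every one of the 7 genes is restricted to fat cells: endothelial cells and macrophages also make Fabp4 and Pparg, and muscle fibres also make Plin4. In bulk RNA, fewer cells of a type and less RNA per cell cannot be told apart.

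Total counts ran between 53572270 and 85416565 per library. Sham soleus library 4 stood apart, with 8048 genes at 1 FPKM or more against 9711 to 11789 in the other 19 libraries, and a TMM scaling factor of 0.494 against 0.862 to 1.26. The main results are therefore also given without it. Levels between libraries are given as CPM, counts scaled to the TMM-adjusted library total, and levels between genes as the deposited FPKM, which is scaled for gene length and library depth. Fibre genes followed the labelled muscles, with a summed level of 7 slow fibre genes of 448 to 23342 CPM in the 10 gastrocnemius libraries and 48772 to 147246 CPM in the 10 soleus libraries. A gene was called when its p-value from edgeR's quasi-likelihood test, adjusted by Benjamini-Hochberg over the 11693 genes that reached 1 FPKM in 5 or more libraries, was below 0.05.

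The 250 bases upstream of the start sites of Adipoq, Plin1, Cidec and Lep are shown because these 4 genes had the most similar pattern over the libraries, and because adipocyte genes are known targets of C/EBP factors. They are RefSeq sequences of the build GRCr8, 5′ to 3′ on the gene's own strand, for Adipoq chr11:91240170-91240419 (minus strand), Plin1 chr1:143086149-143086398 (minus), Cidec chr4:148137116-148137365 (minus) and Lep chr4:58626288-58626537 (plus). Capitals mark a match to the C/EBP motif TTNNGCAA on either strand.
Adipoq: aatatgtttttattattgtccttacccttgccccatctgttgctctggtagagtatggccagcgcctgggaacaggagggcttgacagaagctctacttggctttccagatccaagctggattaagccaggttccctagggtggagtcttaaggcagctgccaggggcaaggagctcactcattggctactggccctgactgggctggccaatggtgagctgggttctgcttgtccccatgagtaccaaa
Plin1: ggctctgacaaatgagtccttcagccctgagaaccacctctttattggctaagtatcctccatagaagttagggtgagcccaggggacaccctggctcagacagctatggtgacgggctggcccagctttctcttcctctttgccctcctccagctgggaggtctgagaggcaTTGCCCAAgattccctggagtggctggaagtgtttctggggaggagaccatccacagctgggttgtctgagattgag
Cidec: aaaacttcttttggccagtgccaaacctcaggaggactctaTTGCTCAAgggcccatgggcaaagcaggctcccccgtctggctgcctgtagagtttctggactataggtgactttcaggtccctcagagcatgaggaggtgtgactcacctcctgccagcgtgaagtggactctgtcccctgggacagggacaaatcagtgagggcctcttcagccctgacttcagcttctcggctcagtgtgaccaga
Lep: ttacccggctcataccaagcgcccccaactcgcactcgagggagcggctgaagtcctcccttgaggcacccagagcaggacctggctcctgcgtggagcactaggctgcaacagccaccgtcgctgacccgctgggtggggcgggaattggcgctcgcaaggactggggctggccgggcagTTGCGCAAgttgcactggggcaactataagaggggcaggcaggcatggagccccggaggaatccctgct
The match lay 77 to 70 bases before the start site in Plin1, 209 to 202 bases before it in Cidec and 69 to 62 bases before it in Lep. Pparg had a match 174 to 167 bases before the second of its 2 listed start sites, while neither Adipoq nor any of the 5 listed start sites of Plin4 had one. Of all 33469 promoters of this length in the table, 9.22% held the motif. The match in Lep was the full palindrome TTGCGCAA, a case of the same motif that 0.140% of the promoters held. The direct repeat of AGGTCA with 1 base between the copies, the textbook site of the PPARG-RXR pair, was searched on both strands and occurred in 0.0508% of the promoters and in none of the 6 members with an entry. The single AGGTCA, which that repeat contains, occurred in 14.1% and likewise in none of the 6 windows. Fabp4 was the other member.

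Adipoq encodes adiponectin, the most abundant hormone of fat cells. In the gene table it lies on chromosome 11 at 81330293 to 81344488 on the minus strand (ENSRNOG00000001821). The 5 ischemia gastrocnemius libraries, in the order of their numbers, held 33.4, 1.54, 3.07, 1.80 and 1.82 CPM, and the sham gastrocnemius libraries held 46.6, 0.784, 0.934, 1.86 and 1.85 CPM. In ischemia soleus the values were 18.3, 22.9, 105, 149.7 and 14.0 CPM, and in sham soleus 43.5, 6.84, 13.1, 9.25 and 9.09 CPM. Library 1 of both gastrocnemius groups stood far above its 4 companions, library 1 of sham soleus stood above its own 4, and libraries 3 and 4 of ischemia soleus were the highest of all 20. Across all 20 libraries the highest level was 191 times the lowest.

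Lep encodes leptin, the satiety hormone of fat cells (chromosome 4, 56337695 to 56351818, plus strand, ENSRNOG00000045797). Its level reached 1 FPKM in 3 libraries and it was the 1 member that did not pass the filter. Ischemia gastrocnemius held 2.82, 0, 0.334, 0 and 0 CPM, and sham gastrocnemius held 2.07, 0.157, 0, 0.199 and 0.236 CPM. Ischemia soleus held 1.63, 1.51, 19.9, 18.5 and 0.710 CPM, and sham soleus held 5.27, 0.739, 1.60, 0 and 0.781 CPM. The same 5 libraries led as for Adipoq. A count of 0 allows up to 3 counts, which is 0.0441 to 0.0938 CPM in the 5 libraries without a count, for counting error only and if a deposited count is 1 fragment. Multiples of 4 made up 28.3% to 36.5% of the low counts of a library, so a count may not be 1 fragment and the limit may be higher.

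Plin1 encodes perilipin 1, the coat protein of the fat cell droplet that gates lipolysis (chromosome 1, 141458181 to 141471010, minus strand, ENSRNOG00000015086). It held 23.6, 0.397, 2.23, 1.33 and 0.431 CPM in ischemia gastrocnemius and 23.1, 0.764, 0.0795, 2.31 and 0.505 CPM in sham gastrocnemius. Soleus libraries held 12.1, 11.9, 36.4, 52.0 and 4.64 CPM after ischemia and 23.8, 3.10, 5.85, 5.41 and 3.51 CPM after sham treatment. Both gastrocnemius libraries numbered 1 were again about as high as the sham soleus library of that number, and ischemia soleus libraries 3 and 4 were again on top.

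Cidec, also called FSP27, fuses small droplets into the large one of a white fat cell (chromosome 4, 145377431 to 145390497, minus strand, ENSRNOG00000009153). Its values were 8.60, 0.338, 1.09, 1.06 and 0.319 CPM in ischemia gastrocnemius and 9.99, 0.392, 0.358, 0.615 and 0.740 CPM in sham gastrocnemius. They were 4.80, 6.40, 21.0, 31.1 and 2.90 CPM in ischemia soleus and 1.36 to 9.91 CPM in sham soleus, where library 1 was highest and library 4 came next with 6.69 CPM. The same 5 libraries led as for Adipoq.

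Plin4 encodes perilipin 4, which coats small nascent droplets (chromosome 9, 10963723 to 10971277, plus strand, ENSRNOG00000047046). It held 169, 185, 167, 139 and 197 CPM in ischemia gastrocnemius and 119.7, 267, 199, 367 and 209 CPM in sham gastrocnemius. In soleus it held 127, 185, 115, 107 and 198 CPM after ischemia and 147, 219.9, 231, 348 and 252 CPM after sham treatment. Its order ran against that of the genes above: ischemia soleus libraries 4 and 3 held the lowest CPM of all 20, and in both sham groups library 1 was the lowest of the 5. In FPKM, sham gastrocnemius library 1 (24.5) and ischemia gastrocnemius library 4 (28.5) were below ischemia soleus libraries 4 and 3 (30.6 and 31.8).

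Fabp4 encodes the fatty acid carrier aP2 (chromosome 2, 93792601 to 93797305, plus strand, ENSRNOG00000010805). Ischemia gastrocnemius libraries held 121, 33.7, 49.1, 70.3 and 66.9 CPM, and sham gastrocnemius libraries held 96.9, 65.6, 37.5, 41.3 and 35.9 CPM. Ischemia soleus libraries held 90.7, 73.7, 116, 182 and 78.8 CPM, and sham soleus libraries held 96.1, 64.4, 80.3, 36.0 and 68.7 CPM. The same libraries led within their groups, but over all 20 the highest level was only 5.39 times the lowest.

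Pparg encodes the nuclear receptor that drives fat cell differentiation (chromosome 4, 147274107 to 147399380, plus strand, ENSRNOG00000008839). It held 7.17, 1.34, 1.56, 2.46 and 1.52 CPM in ischemia gastrocnemius and 4.01, 2.31, 0.795, 1.52 and 1.36 CPM in sham gastrocnemius. Soleus libraries held 4.18, 3.17, 5.98, 8.89 and 2.28 CPM after ischemia and 4.05, 2.91, 3.35, 5.97 and 1.66 CPM after sham treatment. Sham soleus library 4 was the highest of its group here, while in FPKM its 1.23 was the second lowest of that group, against 1.81 in library 1. No overlapping gene model was listed for any of the 7 genes.

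**Figure D1:**
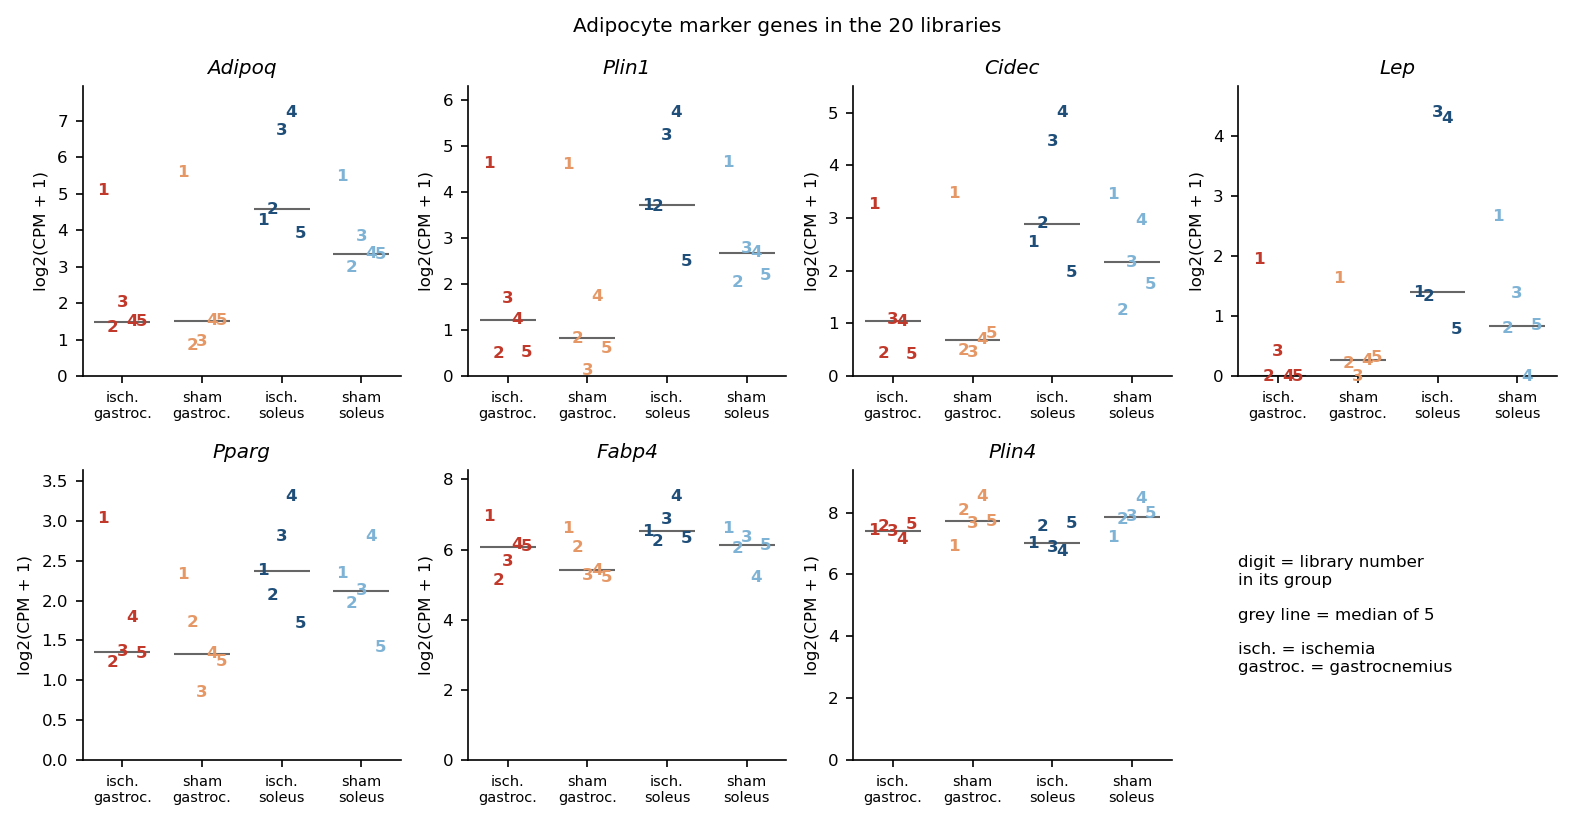
Level of each marker gene as log2(CPM + 1) on the vertical axis, in 4 groups of 5 libraries; each digit is 1 library at its replicate number and the grey line is the group median. Library 1 of both gastrocnemius groups stands above its companions for Adipoq (33.4 and 46.6 CPM), Plin1, Cidec and Lep, while Plin4 shows no such library on top.

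Per length, the 7 genes spread over about 2 orders of magnitude. Averaged over the 20 libraries, Fabp4 had 115 FPKM, Plin4 44.0, Adipoq 13.0, Plin1 3.81, Cidec 2.54, Pparg 1.43 and Lep 0.967 FPKM. Ranges of neighbours in this order overlapped, as with Fabp4 at 25.5 to 326 FPKM beside Plin4 at 24.5 to 74.0 FPKM. The 2 most abundant genes were those with the least spread, and they were at 1 FPKM or more in all 20 libraries. By contrast Adipoq reached that level in 13 libraries, and Plin1, Cidec and Pparg each reached it in 11.

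The ratio between genes therefore moved from library to library. The FPKM of Fabp4 was 67.1 times that of Adipoq in the median ischemia gastrocnemius library, 68.9 times in sham gastrocnemius, 9.86 times in ischemia soleus and 18.7 times in sham soleus, with a full range of 3.39 to 261. Plin4 over Plin1, the ratio of the droplet coat also found in fibres to the one of fat cells, had a median of 74.8 in ischemia gastrocnemius, 250.1 in sham gastrocnemius, 7.53 in ischemia soleus and 46.3 in sham soleus, and ran between 1.47 and 1805. The ratio among genes restricted to fat cells moved less: Cidec over Adipoq stayed between 0.150 and 0.624, and Plin1 over Adipoq between 0.0584 and 0.861, its low end resting on a sham gastrocnemius library with 4 counts of Plin1.

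Of the 6 other members, 5 followed Adipoq over the 20 libraries. On log2(CPM + 1), Pearson's r with Adipoq was 0.98 for Plin1, 0.98 for Cidec, 0.91 for Lep, 0.85 for Pparg and 0.82 for Fabp4. Each had a permutation p of 1.0e-05, the smallest that 100000 permutations can give, and stayed below 0.05 after adjustment over 6 relations. Spearman's rho was 0.97 for Plin1, 0.95 for Cidec, 0.90 for Lep, 0.82 for Pparg and 0.82 for Fabp4, with adjusted permutation p between 2.0e-05 and 6.0e-05. Without ischemia soleus libraries 4 and 3, which lay farthest from the Adipoq median, r was 0.97 for Plin1, 0.96 for Cidec, 0.89 for Lep, 0.77 for Pparg and 0.74 for Fabp4. Without sham soleus library 4, r over all other libraries was 0.98 for Plin1, 0.99 for Cidec, 0.93 for Lep, 0.89 for Pparg, 0.87 for Fabp4 and -0.66 for Plin4. These 6 relations share every library and its scaling.

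Plin4 ran the other way, with r = -0.60 (permutation p = 0.0053) and rho = -0.55 (permutation p = 0.013, adjusted 0.013). Without the 2 farthest libraries its r was -0.41. As deviations from the group means, which take out both muscle and treatment, r with Adipoq was 0.97 for Plin1, 0.96 for Cidec, 0.86 for Lep, 0.79 for Pparg, 0.77 for Fabp4 and -0.65 for Plin4, with adjusted permutation p between 3.0e-05 and 0.0018.

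Since the muscles differ throughout the transcriptome, the relation was also taken within each, over 10 libraries. In gastrocnemius r was 0.97 for Plin1, 0.99 for Cidec, 0.96 for Lep, 0.84 for Pparg, 0.76 for Fabp4 and -0.55 for Plin4, with adjusted permutation p between 0.0016 and 0.016 for the first 5 and 0.093 for Plin4. Without the 2 libraries farthest from the Adipoq median, r in gastrocnemius was 0.63 for Plin1, 0.69 for Cidec and 0.48 for Lep. It was 0.06 for Pparg, -0.02 for Fabp4 and -0.29 for Plin4. In this muscle the relation of Pparg and Fabp4 rested on those libraries, and that of each other member was weaker without them. In soleus r was 0.98 for Plin1, 0.94 for Cidec, 0.96 for Lep, 0.72 for Pparg, 0.84 for Fabp4 and -0.85 for Plin4, with adjusted permutation p between 0.00012 and 0.019. Without the 2 farthest libraries it was 0.96 for Plin1, 0.79 for Cidec, 0.86 for Lep, 0.62 for Fabp4, 0.24 for Pparg and -0.71 for Plin4, so the relation of Pparg rested on those libraries in soleus as well.

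**Figure D2:**
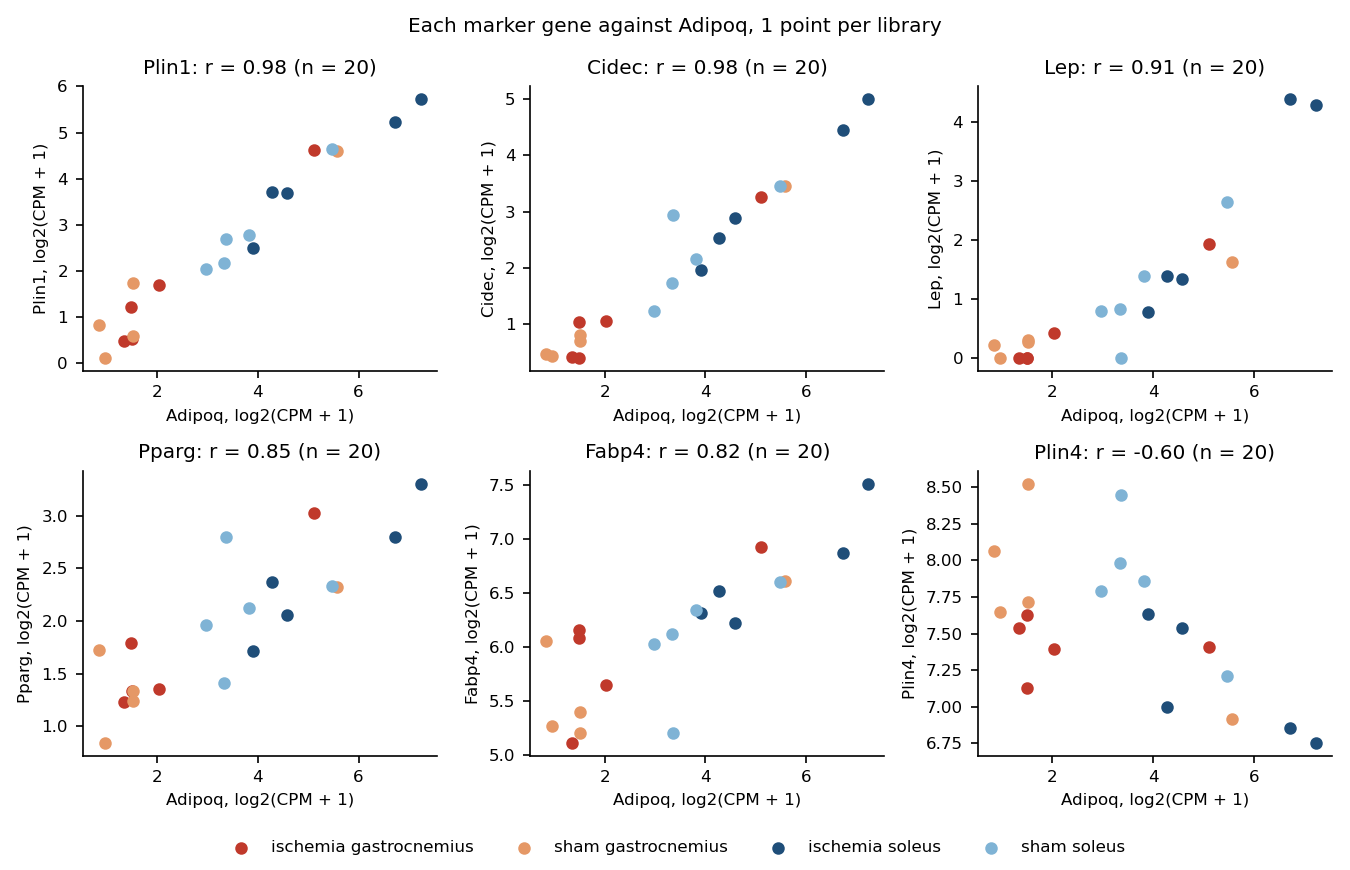
Level of each other marker gene against Adipoq, both as log2(CPM + 1), with 1 point per library coloured by group. Plin1 and Cidec lie near a line over all 4 groups (r = 0.98 each), Fabp4 and Pparg scatter at low Adipoq, and Plin4 slopes down (r = -0.60).

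Leaving the members themselves out, the genes most like Adipoq by r over the 20 libraries were Trarg1 (0.97), Cdo1 (0.97), S100b (0.96), Retn (0.96) and Rbp4 (0.95). The median over all 11693 genes tested was 0.02. Genes known only by an identifier (ENSRNOG, AABR, LOC or RGD) were left out of this ranking and of those below. Trarg1 encodes a regulator of GLUT4 trafficking in fat cells, Cdo1 a cysteine dioxygenase, S100b a calcium-binding protein of glia and fat cells, Retn the hormone resistin and Rbp4 a retinol carrier. Retn and Trarg1 were among those most like Cidec, Cdo1 and Retn among those most like Plin1, and Pck1, the gluconeogenic and glyceroneogenic enzyme, was on the lists of Plin1 and Lep. In all, 13 other genes had an r of 0.9 or more with Adipoq and 17 with Cidec. Unlike the lists above, these counts include other members such as Plin1.

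Pparg, Fabp4 and Plin4 had other neighbours. Pparg was closest to Phgdh (0.95), the first enzyme of serine synthesis, Agt (0.93), which encodes angiotensinogen, and Sncg (0.92), which encodes gamma-synuclein. Fabp4 was closest to Sfxn1 (0.91), a mitochondrial serine transporter, Slco2b1 (0.90), an organic anion transporter, and Rgl1 (0.89). For Plin4 the leading genes were Gcn1 (0.83), an activator of the amino acid starvation response, Cul9 (0.81) and Cbfa2t3 (0.80), and no gene reached 0.9. The r of the genes named as most like a member lay between 0.77 and 0.99 without sham soleus library 4.

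**Figure D3:**
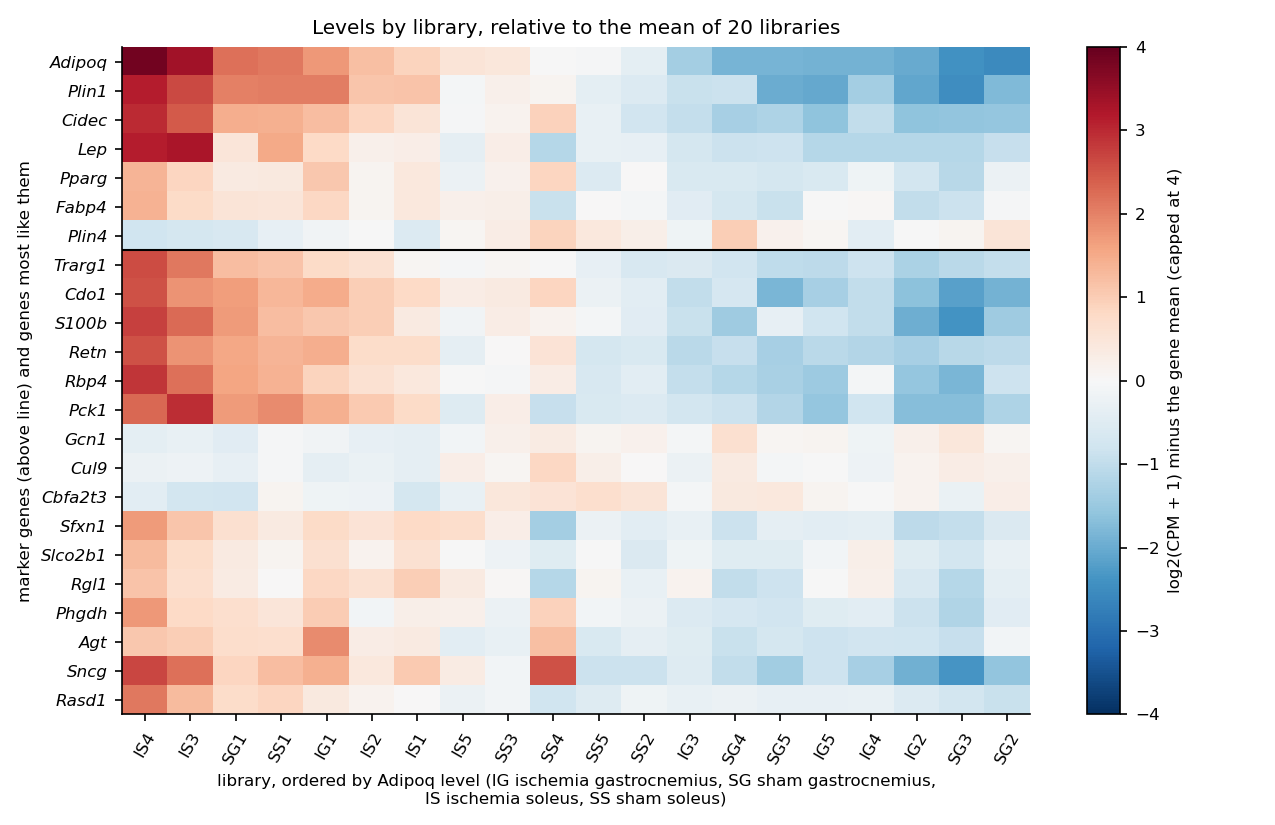
Level of each marker gene and of its most similar genes in every library, as log2(CPM + 1) minus the gene's mean over 20 libraries (red above, blue below), with libraries ordered by Adipoq. The genes most like Adipoq follow its gradient between ischemia soleus library 4 (149.7 CPM) and sham gastrocnemius library 2 (0.784 CPM), whereas Plin4, Gcn1, Cul9 and Cbfa2t3 run against it.

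In gastrocnemius, no marker gene was called between ischemia and sham. Adipoq averaged 8.33 ± 14.0 CPM in ischemia gastrocnemius and 10.4 ± 20.2 CPM in sham gastrocnemius (SD over 5 libraries per group), and edgeR gave a log2 fold change with SE of -0.32 ± 1.14 (adjusted p = 0.987). Plin1 averaged 5.60 ± 10.1 CPM after ischemia and 5.35 ± 9.95 CPM after sham treatment. The 7 log2 fold changes lay between -0.44 for Plin4 and 0.49 for Pparg, and 0 of the 6 members that passed the filter were called, where 0% of all genes were. The ranges of the groups overlapped for every member, while they did not overlap for 1.41% of all genes. In this comparison edgeR called 0 genes and 727 had an unadjusted p under 0.05, while DESeq2 called 11.

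The direction of Adipoq, Plin1 and Cidec in gastrocnemius turned with single libraries, and library 1 of each group moved it most. Without sham gastrocnemius library 1 the log2 fold change was 2.61 ± 1.03 for Adipoq (adjusted p = 0.453), 2.61 ± 1.20 for Plin1 and 2.11 ± 0.97 for Cidec. Leaving out ischemia gastrocnemius library 1 in its place gave -2.31 ± 1.14 for Adipoq (adjusted p = 1.00), -2.26 ± 1.20 for Plin1 and -1.76 ± 1.01 for Cidec. Near 0, the sign also turned for Plin1 without any of sham gastrocnemius libraries 2 to 5 (-0.25 to -0.12) and for Cidec without any of ischemia gastrocnemius libraries 2 to 5 (0.10 to 0.20). Adipoq stayed at -0.32 ± 1.17 without sham soleus library 4 (adjusted p = 0.904).

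In soleus no marker gene was called either, although 6 of the 7 averaged more after ischemia. Adipoq averaged 61.9 ± 61.8 CPM in ischemia soleus and 16.4 ± 15.3 CPM in sham soleus, a log2 fold change of 1.92 ± 1.17 with a 95% interval of -0.53 to 4.37 (adjusted p = 0.296). Lep averaged 8.43 ± 9.81 CPM in ischemia soleus and 1.68 ± 2.09 CPM in sham soleus, a log2 fold change of 2.26 ± 1.39 in the fit without a filter (adjusted p = 0.364). Plin1 stood at 1.49 ± 1.22, Cidec at 1.48 ± 1.03, Fabp4 at 0.65 ± 0.36 and Pparg at 0.46 ± 0.51 on the log2 scale, with adjusted p between 0.245 and 0.599. Without sham soleus library 1, Adipoq was at 2.69 and Plin1 at 2.39, and without ischemia soleus library 4 Adipoq was at 1.27, Plin1 at 0.95, Cidec at 0.88, Fabp4 at 0.37 and Pparg at 0.12. The ranges of the groups overlapped for every member, while they did not overlap for 13.5% of all genes.

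Plin4 went the other way and had the smallest p of the members in soleus. It averaged 146 ± 41.9 CPM in ischemia soleus and 239 ± 72.3 CPM in sham soleus, a log2 fold change of -0.71 ± 0.26 with an interval of -1.26 to -0.16 (adjusted p = 0.0984), which does not pass the threshold. Over 27 alternative fits this log2 fold change lay between -0.84 and -0.27, with an adjusted p of 0.0541 to 0.513. In FPKM the means lay closer, at 40.8 in ischemia soleus and 49.7 in sham soleus. Of all genes tested 1.03% were called in soleus, 62 higher and 59 lower after ischemia, and 0 of the 6 members tested were. DESeq2 called 1444 genes, limma 1668 and edgeR at an unadjusted p under 0.05 had 3256, and neither DESeq2 nor limma called a member.

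Without sham soleus library 4, sham soleus averaged 18.1 ± 17.1 CPM for Adipoq, 9.07 ± 9.90 for Plin1, 212 ± 45.7 for Plin4, 77.4 ± 14.2 for Fabp4, 4.27 ± 3.86 for Cidec, 2.99 ± 1.00 for Pparg and 2.10 ± 2.15 for Lep (SD, n = 4). The soleus log2 fold changes were then 1.77 ± 1.28 for Adipoq (adjusted p = 0.395), 1.37 ± 1.33 for Plin1, -0.54 ± 0.26 for Plin4 (adjusted p = 0.187), 0.48 ± 0.36 for Fabp4, 1.63 ± 1.14 for Cidec and 0.71 ± 0.54 for Pparg. Still 0 of 6 were called, whereas 6.15% of all genes were. Over the fits that each left out 1 of the 20 libraries, no member was called in soleus, while the genes called in all numbered between 1 (without ischemia soleus library 4, for example) and 737 (without sham soleus library 3).

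The ischemia response of gastrocnemius minus that of soleus, tested as an interaction, was -2.24 ± 1.62 for Adipoq on the log2 scale (95% interval -5.64 to 1.16, adjusted p = 0.750). For Plin1 it was -1.42 ± 1.71, for Cidec -1.56 ± 1.45, for Fabp4 -0.35 ± 0.50, for Plin4 0.27 ± 0.37 and for Pparg 0.04 ± 0.72. None of the 6 was called, and neither was any gene (0% of those tested, with 758 at an unadjusted p under 0.05 by edgeR and 2 called by DESeq2). Without sham gastrocnemius library 1 the sign of the interaction of Adipoq (0.69 ± 1.29), Plin1 (1.12 ± 1.51) and Cidec (0.63 ± 1.23) turned. Without sham soleus library 4 it was -2.09 ± 1.72 for Adipoq and -1.71 ± 1.53 for Cidec, and Pparg turned to -0.22 ± 0.74.

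Between the muscles after ischemia, the fat cell genes averaged less in gastrocnemius than in soleus. Adipoq had the 8.33 ± 14.0 CPM given above in ischemia gastrocnemius, against 61.9 ± 61.8 CPM in ischemia soleus, a log2 fold change of -2.89 ± 1.22 with an interval of -5.44 to -0.35 (adjusted p = 0.128). Cidec averaged 2.28 ± 3.55 CPM in ischemia gastrocnemius and 13.2 ± 12.3 CPM in ischemia soleus, at -2.53 ± 1.07 (adjusted p = 0.131), Plin1 stood at -2.06 ± 1.25 (0.306) and Lep, without the filter, at -3.71 ± 1.49 (0.175). Fabp4 was at -0.67 ± 0.36, Pparg at -0.80 ± 0.51 and Plin4 at 0.23 ± 0.26. With 0 of 6 members called and 12.6% of all genes, none of these differences passed edgeR's test of the 4 group means, and the ranges of the groups overlapped for every member, while they did not for 21.0% of all genes. Without sham soleus library 4, which enters only the shared estimate of spread, 0 of 6 members were called (adjusted p = 0.0802 for Adipoq) and 32.4% of all genes were.

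Single libraries moved these values in both directions. Without ischemia soleus library 4, Adipoq was at -2.23, Cidec at -1.91, Plin1 at -1.51, Pparg at -0.45 and Fabp4 at -0.37. Without ischemia gastrocnemius library 1, 4 of the 6 members were called lower in gastrocnemius, where 17.8% of all genes were called: Adipoq at -4.89 ± 1.29 (adjusted p = 0.0146), Cidec at -4.22 ± 1.12 (0.0150), Plin1 at -4.39 ± 1.32 (0.0277) and Pparg at -1.49 ± 0.47 (0.0369). Without sham gastrocnemius library 1, which likewise enters only that estimate, Adipoq was called at -2.89 ± 0.93 (adjusted p = 0.0484), where 13.2% of all genes were. DESeq2 called Adipoq (adjusted p = 0.0448) and Cidec (0.0358) with all libraries kept, where it called 18.8% of all genes, and limma on log2(FPKM + 1) called Adipoq, Plin1, Cidec and Pparg, where it called 30.3%. With the library number as a block, edgeR called Adipoq (adjusted p = 0.00585), Cidec (0.00632) and Plin1 (0.0113) among 1561 of the 11693 genes tested. The labels do not say that a number pairs libraries.

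After sham treatment no member was called between the muscles, although 24.9% of all genes were, and the ranges of the groups overlapped for every member, while they did not for 16.8% of all genes. Adipoq averaged 10.4 ± 20.2 CPM in sham gastrocnemius and 16.4 ± 15.3 CPM in sham soleus, a log2 fold change of -0.65 ± 1.14 (adjusted p = 0.714). Cidec stood at -0.97 ± 1.03, Pparg at -0.84 ± 0.52, Plin1 at -0.64 ± 1.21, Fabp4 at -0.32 ± 0.36, Plin4 at -0.04 ± 0.26 and Lep, without the filter, at -1.68 ± 1.41. Without sham gastrocnemius library 1, Adipoq at -3.59 ± 1.07 (adjusted p = 0.0220) and Cidec at -3.16 ± 1.00 (0.0289) were called, beside 24.7% of all genes. Leaving out sham soleus library 1 in its place put Adipoq at 0.12 ± 1.19 and Plin1 at 0.26 ± 1.26. Without sham soleus library 4, 0 of 6 members were called with 35.4% of all genes, and Adipoq was at -0.80 ± 1.22. The comparisons between muscles use the same libraries as those of ischemia with sham.

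**Figure D4:**
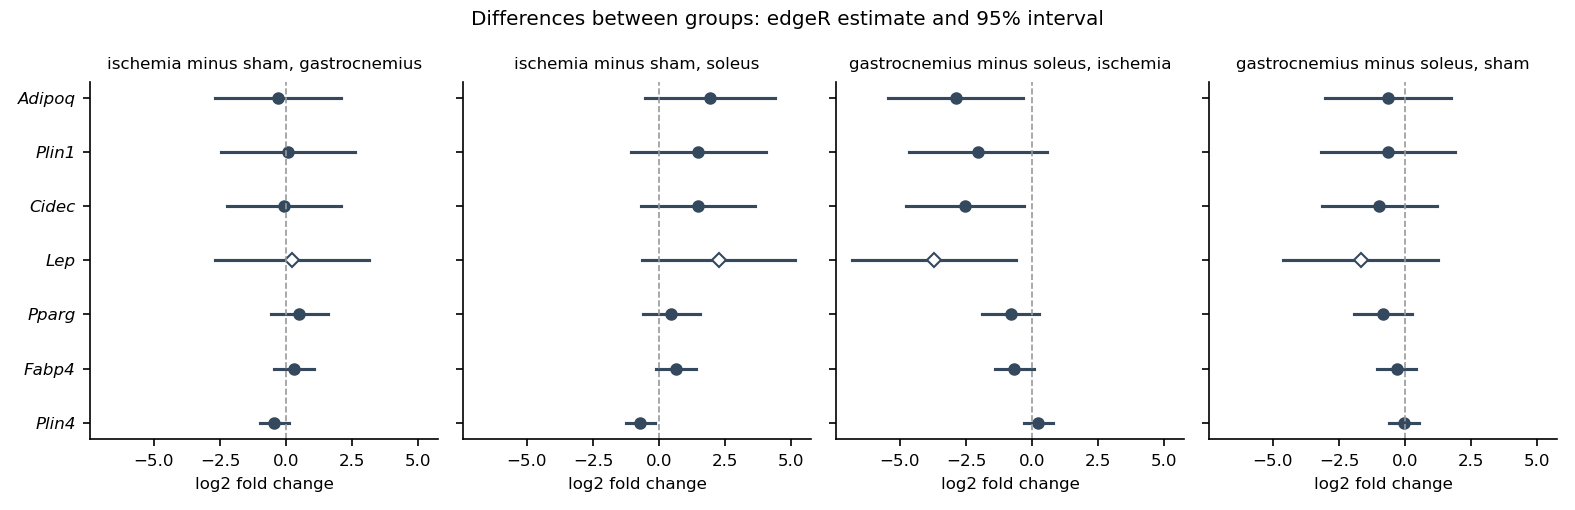
Log2 fold change of each marker gene with its 95% interval from edgeR in the 4 comparisons of 2 groups; the open diamond marks Lep, taken from the fit without a filter. The intervals of Adipoq, Cidec and Lep lie below 0 only for gastrocnemius minus soleus after ischemia, and that of Plin4 only for ischemia minus sham in soleus, but no adjusted p is below 0.05.

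Genes of Schwann cells, fibroblasts, macrophages, tendon and lymphocytes were high in library 1 of both gastrocnemius groups. In ischemia gastrocnemius the summed level of 8 Schwann cell genes was 172 CPM in library 1, against 16.2 to 39.8 CPM in the other 4 libraries, and that of 8 fibroblast genes was 5749.8 CPM, against 883 to 2293 CPM. In sham gastrocnemius the Schwann cell sum was 116 CPM in library 1, against 17.6 to 37.1 CPM, and the fibroblast sum 5306 CPM, against 801 to 2708 CPM. The Schwann cell list holds S100b, which fat cells also make. Macrophage, tendon and lymphocyte sums in ischemia gastrocnemius library 1 were 336, 564 and 22.8 CPM, against at most 174, 260.2 and 13.2 CPM in its companions. In sham gastrocnemius library 1 they were 279, 441 and 18.9 CPM, against at most 173, 206 and 11.5 CPM. Not every cell type had its highest sum in sham gastrocnemius library 1. There the sum of 13 endothelial genes was 309 CPM and that of 9 mural cell genes 407 CPM, against 357 and 483 CPM in library 2. In ischemia gastrocnemius library 1 the endothelial and mural sums were the highest of that group, at 469 and 559 CPM.

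In soleus the Schwann cell and fibroblast sums did not move alike with Adipoq. Ischemia soleus libraries 3 and 4 had the highest Schwann cell sums of their group (152 and 135 CPM), but the fibroblast sum was lowest in library 3 (3394 CPM) and highest in library 4 (8316 CPM). Sham soleus library 1 had the highest Schwann cell sum of its group (78.8 CPM), and its fibroblast sum of 1668 CPM was the fourth of 5.

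Between ischemia and sham soleus, the range of the fibroblast sum did not overlap, at 3394 to 8316 CPM in ischemia soleus and 1343 to 2077 CPM in sham soleus, and 1 of its 8 genes, Pdgfra, was called (8 higher, median log2 fold change 1.21). Over all single genes, 13.5% had ranges that did not overlap in this comparison, and 1.03% were called. The sum of 8 lymphocyte genes did not overlap either, at 19.0 to 34.0 CPM in ischemia soleus and 4.31 to 17.0 CPM in sham soleus. Only 1 of these 8 genes passed the filter, and it was not called. The ranges of the Schwann cell, macrophage and endothelial sums overlapped. The Schwann cell sum lay at 78.7 to 152 CPM in ischemia soleus and 41.6 to 78.8 CPM in sham soleus, the sum of 11 macrophage genes at 271 to 435 CPM in ischemia soleus and 94.1 to 554 CPM in sham soleus, and the sum of 13 endothelial genes at 313 to 437 CPM in ischemia soleus and 271 to 358 CPM in sham soleus. The highest macrophage sum of sham soleus was that of library 4, and without it the range was 94.1 to 215 CPM. None of the 5 Schwann cell, 10 macrophage and 12 endothelial genes tested was called, where 1.03% of all genes were.

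Across libraries, r of the log2 sum with Adipoq was 0.90 for Schwann cells, 0.75 for fibroblasts, 0.70 for macrophages, 0.72 for 8 lymphocyte genes and 0.67 for 6 tendon genes. It was 0.52 for 4 red blood cell genes, 0.48 for endothelium, 0.02 for 9 mural cell genes, 0.54 for slow fibre genes and -0.57 for fast fibre genes. With Fabp4 it was 0.65 for endothelium and 0.54 for macrophages, but 0.81 for lymphocyte genes, 0.80 for Schwann cells and 0.74 for fibroblasts. With Pparg it was 0.67 for endothelium and 0.75 for macrophages, beside 0.89 for Schwann cells, 0.75 for red blood cell genes and 0.73 for tendon genes. Gene by gene, the median r with Adipoq was 0.71 for the Schwann cell genes tested, 0.70 for fibroblast and 0.68 for macrophage genes. S100b, at 0.96, was the highest of the Schwann cell genes. These r are descriptions over libraries that share depth and scaling. Cldn5 was the only one of the endothelial genes at 0 in all libraries of a group, and no fibroblast, macrophage or Schwann cell gene was. The part of these cells in the levels of the marker genes was not tested.

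Of 15 other genes typical of white fat cells, 14 were measured and 9 passed the filter, and Klb was not analysed here. Their median r with Adipoq was 0.93, and Retn, Trarg1, Pck1, Cfd, Cebpa and Sncg had r of 0.88 or more. Cfd, which encodes the complement factor adipsin, and Sncg had the highest levels of the list, at a mean of 35.9 and 21.1 FPKM. Like the markers, none of the 9 was called between ischemia and sham in gastrocnemius (median log2 fold change -0.13, where the median of all genes was close to 0) or in soleus (1.05, where that of all genes was -0.04), and Cfd stood at 1.17 ± 0.78 in soleus (adjusted p = 0.342).

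The exceptions of that list were Adig, Aqp7 and Tmem120b, with r to Adipoq of -0.65, 0.53 and -0.30. Adig, known in mouse as adipogenin, was called higher in gastrocnemius than in soleus. It averaged 3.12 ± 1.21 CPM in sham gastrocnemius and 0.236 ± 0.189 CPM in sham soleus, at 3.76 ± 0.82 on the log2 scale (adjusted p = 0.00253). It averaged 2.86 ± 1.68 CPM in ischemia gastrocnemius and 0.239 ± 0.182 CPM in ischemia soleus, at 3.58 ± 0.80 (adjusted p = 0.00609). Aqp7, the glycerol channel of fat cells that muscle also makes, averaged 2.83 ± 3.27 CPM in sham gastrocnemius and 65.8 ± 74.9 CPM in sham soleus, at -4.54 ± 1.00 (adjusted p = 0.00283), and remained called at -3.52 without sham soleus library 4.

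Among 14 genes tested of fatty acid and triglyceride synthesis, 2 were called higher and 1 lower in gastrocnemius than in soleus after ischemia, where 7.87% of all genes were called higher and 4.73% lower. After sham treatment 3 were called higher and 2 lower, where 11.4% of all genes were called higher and 13.5% lower. Gpd1, which makes the glycerol-3-phosphate backbone and was the most abundant of the list with 146 FPKM, averaged 747 ± 426 CPM in ischemia gastrocnemius and 67.5 ± 37.0 CPM in ischemia soleus, at 3.47 ± 0.40 (adjusted p = 2.32e-05), and 1031 ± 366 CPM in sham gastrocnemius and 55.2 ± 10.7 CPM in sham soleus, at 4.22 ± 0.42 (1.95e-06). Me1, the malic enzyme that supplies NADPH, was at 1.38 ± 0.28 after ischemia (adjusted p = 0.00270) and 1.17 ± 0.28 after sham treatment (0.00439), and Lpin1, a phosphatidate phosphatase, at 1.74 ± 0.41 after sham treatment (0.00460). The genes called lower were Gpam (-1.62 ± 0.48, adjusted p = 0.0188) and Agpat2 (-2.22 ± 0.62, 0.0140), both acyltransferases, after sham treatment, and Acaca (-1.78 ± 0.51, 0.0275), the acetyl-CoA carboxylase, after ischemia. Agpat2 was at -1.32 without sham soleus library 4 (0.0544), Gpam at -1.34 without sham soleus library 5 (0.0504), and Acaca lost its call without ischemia soleus library 2 or 3 or ischemia gastrocnemius library 2, 4 or 5, with an adjusted p of up to 0.0813.

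All 13 genes of the droplet and of lipolysis were tested, and 3 were called lower in gastrocnemius than in soleus after ischemia, where 4.73% of all genes were, and 6 after sham treatment, where 13.5% were, with none higher. Plin3, the perilipin of most tissues, averaged 9.14 ± 4.51 CPM in ischemia gastrocnemius and 24.0 ± 6.35 CPM in ischemia soleus, at -1.39 ± 0.30 (adjusted p = 0.00475), and 6.83 ± 2.57 CPM in sham gastrocnemius and 29.1 ± 4.86 CPM in sham soleus, at -2.09 ± 0.31 (0.000102). Plin2, another widespread perilipin, averaged 34.5 ± 9.06 CPM in ischemia gastrocnemius and 69.2 ± 6.41 CPM in ischemia soleus (adjusted p = 0.00947), and was at -0.92 ± 0.24 after sham treatment (0.00864). Cidea, a droplet protein related to Cidec, was at -2.54 ± 0.78 after ischemia (0.0376) and -3.99 ± 0.83 after sham treatment (0.00186), and its call after ischemia was lost without any of libraries 2 to 5 of either ischemia group, with an adjusted p of up to 0.0968. After sham treatment the lipases Lipe (-1.21 ± 0.40, adjusted p = 0.0332) and Pnpla2 (-1.21 ± 0.44, 0.0497) and the lipase inhibitor G0s2 (-1.67 ± 0.60, 0.0474) were called too, but without sham soleus library 4 Lipe stood at -0.49 (0.165), Pnpla2 at -0.27 (0.411), and G0s2 had an adjusted p of 0.171. The call of Lipe was also lost without sham gastrocnemius library 3, 4 or 5, and those of Pnpla2 and G0s2 with any of 15 of the 20 libraries left out. Fitm1, a droplet-forming protein of muscle, was the most abundant of the list at 93.1 FPKM and was not called.

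For the uptake and carriage of fatty acids 9 genes were tested, with 1 called lower in gastrocnemius than in soleus after ischemia, where 4.73% of all genes were, and 6 after sham treatment, where 13.5% were. Lpl, which frees fatty acids from circulating lipoproteins, averaged 237 ± 231 CPM in sham gastrocnemius and 1253 ± 352 CPM in sham soleus, at -2.40 ± 0.52 (adjusted p = 0.00236). Fabp3, the carrier of muscle and the most abundant of the list at 842 FPKM, was at -2.73 ± 0.64 (0.00431), Slc27a1, a fatty acid transporter, at -1.98 ± 0.48 (0.00564) and Angptl4, an inhibitor of Lpl, at -2.26 ± 0.58 (0.00823). These calls held without sham soleus library 4, with Fabp3 at -1.88, Slc27a1 at -1.46 and Angptl4 at -1.57. Angptl4 was at -1.95 ± 0.58 after ischemia (0.0331), a call lost without ischemia soleus library 2 (-1.24, 0.146) or 5 or ischemia gastrocnemius library 2, 3 or 4. Gpihbp1, which anchors Lpl to capillaries (-1.54 ± 0.53, 0.0379), and Acsl1, which activates fatty acids (-0.81 ± 0.29, 0.0440), were called after sham treatment. The call of Gpihbp1 was lost without sham soleus library 4 (-0.75, 0.186) or sham gastrocnemius library 1, 3, 4 or 5, and that of Acsl1 with any of 16 libraries left out, with an adjusted p of up to 0.116.

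Among genes of brown and beige fat cells, 4 of 10 passed the filter, among them Cidea, given above, and Cox8b, a muscle and brown fat subunit of cytochrome oxidase with 123 FPKM. Cox8b was called lower in sham gastrocnemius than in sham soleus at -1.51 ± 0.51 (adjusted p = 0.0371), but stood at -0.36 without sham soleus library 4 (0.358), and the call was also lost without sham gastrocnemius library 2, 3, 4 or 5. Ucp1 was not analysed here.

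Among 13 tested genes of adipogenic precursors, 2 were called higher and 1 lower in ischemia than in sham soleus, where 0.530% of all genes were called higher and 0.505% lower, and the other 7 lists held no call between ischemia and sham. Pdgfra, a growth factor receptor of fibro-adipogenic progenitors, averaged 49.4 ± 10.8 CPM in ischemia soleus and 20.7 ± 7.64 CPM in sham soleus, at 1.25 ± 0.27 (adjusted p = 0.0417). Ebf1, a transcription factor of early adipogenesis, averaged 13.0 ± 1.99 CPM in ischemia soleus and 6.26 ± 0.943 CPM in sham soleus, at 1.05 ± 0.21 (0.0383). Klf15, a regulator of adipogenesis and of muscle metabolism, averaged 13.5 ± 3.03 CPM in ischemia soleus and 31.5 ± 12.9 CPM in sham soleus, at -1.22 ± 0.25 (0.0383). The call of Pdgfra was lost with any of 11 of the 20 libraries left out (adjusted p of up to 0.145), that of Ebf1 with any of 8 (up to 0.128) and that of Klf15 with any of 10 (up to 0.128). In the 27 alternatives the log2 fold change stayed between 1.08 and 1.52 for Pdgfra, 0.99 and 1.44 for Ebf1 and -1.31 and -0.68 for Klf15.

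Between the muscles, Pdgfra was also called lower in gastrocnemius than in soleus after ischemia (-0.99 ± 0.27, adjusted p = 0.0209) and Klf15 higher (0.77 ± 0.24, 0.0443). The call of Pdgfra was lost without ischemia soleus library 4 (0.0736) or ischemia gastrocnemius library 2 or 5, and that of Klf15 with any of 12 libraries left out (up to 0.117). After sham treatment Pi16, a marker of fibroblast progenitors, was called lower in gastrocnemius (-2.29 ± 0.68, 0.0194) and was at -0.94 without sham soleus library 4 (0.146), and sham gastrocnemius library 3 also ended its call. Zfp423 (0.88 ± 0.23, 0.0102), which commits precursors to fat, and Zfp521 (1.11 ± 0.29, 0.00888), which opposes that step, were called higher.

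The receptors and cofactors that act with or beside Pparg did not share its relation to Adipoq. Over 13 genes of PPAR and RXR receptors and their cofactors, the median r with Adipoq was -0.21, and none was called between ischemia and sham. Rxrg, an RXR of muscle, averaged 75.1 ± 24.6 CPM in ischemia gastrocnemius and 23.6 ± 3.48 CPM in ischemia soleus, at 1.67 ± 0.25 (adjusted p = 0.000211), and 97.5 ± 20.7 CPM in sham gastrocnemius and 33.1 ± 12.6 CPM in sham soleus, at 1.56 ± 0.25 (0.000190). After sham treatment Rxra was called higher in gastrocnemius (1.02 ± 0.34, 0.0336) and Ppard lower (-0.63 ± 0.19, 0.0190), and the call of Rxra was lost without sham gastrocnemius library 3 (0.0889), 4 or 5.

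Muscle carries the receptors on which adiponectin and insulin act. Adipor1, an adiponectin receptor, averaged 157 ± 48.9 CPM in ischemia gastrocnemius and 86.3 ± 5.96 CPM in ischemia soleus, at 0.87 ± 0.18 (adjusted p = 0.00425), and 208 ± 30.6 CPM in sham gastrocnemius and 111 ± 15.6 CPM in sham soleus, at 0.90 ± 0.18 (0.00157). Cdh13, which encodes T-cadherin and binds adiponectin on endothelium and muscle, averaged 109 ± 12.0 CPM in ischemia gastrocnemius and 171 ± 15.4 CPM in ischemia soleus, at -0.66 ± 0.14 (0.00317), and was at -0.70 ± 0.14 after sham treatment (0.00106). The insulin-responsive glucose transporter Slc2a4, with 177 FPKM, and the other adiponectin receptor Adipor2, with 81.4 FPKM, were the most abundant of the 6 genes tested and were not called in any comparison. None of the 6 was called between ischemia and sham.

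Calls of the list genes differed in how far they rested on the setting. Of the 28 calls between the muscles after sham treatment, 14 held in the 28 alternatives run, namely Aqp7, Adig, Lpin1, Me1, Gpd1, Cidea, Plin3, Angptl4, Lpl, Fabp3, Slc27a1, Rxrg, Adipor1 and Cdh13. Of 13 calls after ischemia, 6 held in the same 28 alternatives, namely Me1, Gpd1, Plin2, Plin3, Rxrg and Cdh13. Cidea stands in 2 of the lists and is counted once.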

How the data were processed

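One table held 21926 genes with whole-number counts and FPKM for each of 20 libraries, both as the authors deposited them; per the labels' protocols the libraries were stranded poly(A) libraries read on a NovaSeq instrument. The aligner, counter and build were not named in the labels or headers, so gene positions are those of the deposited table, and promoters (GRCr8) were not joined to them by position. Between 28.3% and 36.5% of the deposited counts of 1 to 40 in a library were multiples of 4. Members and gene lists were chosen with earlier results of these data known.

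Counts were tested with edgeR 4.0.16 (R 4.3.3) in 1 model of 4 group means over 20 libraries, with TMM scaling, robust quasi-likelihood F tests, two-sided, and Benjamini-Hochberg adjustment over 11693 genes that reached 1 FPKM in 5 or more libraries. The standard error is the log2 fold change over the square root of F. CPM, counts scaled to the TMM-adjusted library total, were computed here; log2 levels and correlations use CPM + 1. Lep, below the filter, comes from the same model without it (21926 genes). Named genes were the 7 members, every called gene and the 2 highest in FPKM of 8 lists, and the 3 genes with a gene symbol most like each member by r (5 for Adipoq). The model was checked on simulated counts with the same dispersion for all genes, so the check does not cover genes of wider spread such as Adipoq. Alternatives were RLE factors, library totals, no filter, DESeq2 1.42.0, limma 3.58.1 on log2(FPKM + 1), only the groups compared, a replicate block and leaving out each library. Library numbers are those of the titles. The library names in the labels run in the reverse order in each group, and columns were matched by title. Library totals lay between 53572270 and 85416565 counts, and limits from a count of 0 cover counting error only.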

Additional observations from a re-analysis of the deposited data

Results flagged for a closer look

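In 11 of 28 sets of 5 libraries (7 genes in 4 groups), 1 library lay apart from the other 4 by more than Dixon's 95% limit. The limit was applied to CPM, not to log2(CPM + 1). It is set for normally distributed values, which CPM need not be, so the 11 sets are not compared with a chance rate. In every one of these 11 sets it was the library numbered 1 in its title, and it was the highest. Ischemia gastrocnemius library 1 held 33.4 CPM of Adipoq, against 3.07 CPM in the next library, 23.6 of Plin1 against 2.23, 8.60 of Cidec against 1.09, 7.17 of Pparg against 2.46 and 2.82 of Lep against 0.334. Sham gastrocnemius library 1 held 46.6 CPM of Adipoq against 1.86, 23.1 of Plin1 against 2.31, 9.99 of Cidec against 0.740 and 2.07 of Lep against 0.236. Sham soleus library 1 held 43.5 CPM of Adipoq against 13.1 and 23.8 of Plin1 against 5.85. The sets share libraries, and the members vary together, so the 11 are not independent.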

How the results depend on the processing

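Of 822 alternative fits of a member's log2 fold change, 763 kept direction and side of the threshold, 40 changed sign, and 19 newly passed it. In the gastrocnemius comparison of ischemia with sham, Adipoq turned to 0.18 with limma and 0.18 with the replicate block, and Cidec to 0.09 with library totals and 0.07 with limma. The interaction turned to -0.08 for Plin4 and -0.31 for Pparg with library totals, and for Pparg to -0.30 with limma, -0.15 with the replicate block and -0.08 with that block within treatment. Plin4 between the muscles after ischemia turned to -0.13 with library totals and -0.09 with limma. With 1 library left out, log2 fold changes ran between -2.31 and 2.61 for Adipoq, -2.26 and 2.61 for Plin1, -1.76 and 2.11 for Cidec and -0.20 and 0.91 for Pparg in gastrocnemius. For the interaction they ran between -4.23 and 0.69 for Adipoq, -3.75 and 1.12 for Plin1, -3.25 and 0.63 for Cidec and -0.66 and 0.45 for Pparg, and between the muscles after sham treatment between -3.59 and 0.12 for Adipoq, -3.18 and 0.26 for Plin1 and -0.27 and 0.13 for Plin4. In soleus they ran between 1.27 and 2.69 for Adipoq, and between the muscles after ischemia between -4.89 and -2.23.

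Members called between the muscles after ischemia were 0, against 2 with DESeq2 (of 2198 genes called), 4 with limma (of 3548), 3 with the replicate block (of 1561: Adipoq at -4.33, Plin1 at -3.79 and Cidec at -3.67), 3 with the block within treatment (of 1344, the same genes) and 0 to 4 with 1 library left out. After sham treatment they were 0 to 2 with 1 library left out. All genes called in soleus were 121, against 227 with RLE factors, 398 with library totals, 2 without a filter, 1444 with DESeq2, 1668 with limma and 1 to 737 with 1 library left out. In gastrocnemius they were 0, against 11 with DESeq2 and 0 to 6, and for the interaction 0, against 1 with library totals, 2 with DESeq2, 1 with limma and 0 to 1. Between the muscles they were 1473 after ischemia, against 2633 with library totals, 3548 with limma, 3685 in a fit of those groups alone and 849 to 3784, and 2911 after sham treatment, against 1387 in a fit of those groups alone and 2065 to 4136. Library totals moved the median log2 fold change of all genes to 0.31 in soleus and -0.38 between the muscles after ischemia, from -0.04 and -0.03, and the split of calls to 387 higher and 11 lower in soleus and 441 higher and 2192 lower between the muscles. The labels do not say that a replicate number pairs libraries. Deviations of same-numbered muscles of a treatment correlated at -0.21 to 0.43. With 5 candidates for each library, 10 of 20 libraries correlated best with their own number. These values do not settle whether a number marks a pair. The fit of only the groups compared was not run for the interaction. The cause of these changes was not tested. Whether spread between libraries or depth limits the comparisons of Adipoq, Plin1, Cidec and Lep was not tested. Plin1 had 4 counts in sham gastrocnemius library 3, and Lep had 0 counts in 5 libraries.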
